A study of Mus musculus with 9 samples.

Results

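The IL-1, IL-18 and IL-33 system was followed through 10 genes named for it, of 52550 genes counted in RNA sequencing of mouse ear dermis. They are the ligands Il1a, Il1b, Il18 and Il33, the antagonist Il1rn, the decoy receptor Il1r2, the receptors Il1r1, Il1rl1 and Il18r1, and the accessory chain Il1rap. They were picked by gene name as parts of this system, with earlier results of these data known. All 10 were found in the table and passed the filter on low counts.

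All animals were C57BL/6 mice of 8 weeks that the labels give as wild type, and the study's methods name the strain as C57BL/6J. The control group, VAS+H2O, had vaseline put on the ear for 5 days and received water by gavage for 10 days. The IMQ+H2O group received imiquimod cream, an activator of Toll-like receptors that produces psoriasis-like dermatitis, over the same 5 days together with water by gavage. The IMQ+XYF group received imiquimod cream and 200 µl of Xiao-Yin-Fang (XYF) by gavage at 23.3 mg/g, begun 5 days before the cream. XYF is a decoction of Isatis tinctoria, Scutellaria baicalensis, Salvia miltiorrhiza, Sophora flavescens and Rheum officinale. Each group held 3 libraries, and no group received XYF without imiquimod, so every XYF value here is one of imiquimod-treated skin. No source says whether a library pooled mice, so the p-values measure the spread between these libraries only.

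IL-1α and IL-1β bind IL-1 receptor type 1, which then recruits the accessory protein IL-1RAcP and signals through MyD88 to NF-κB. The antagonist IL-1Ra occupies the same receptor without signalling, and the type 2 receptor binds IL-1 but lacks a signalling domain. IL-33 acts through ST2, encoded by Il1rl1, with the same accessory chain, while IL-18 uses its own receptor pair and is held in check by IL-18 binding protein. IL-1β and IL-18 are made as precursors that inflammasomes activate, and IL-1α and IL-33 are stored in the nuclei of barrier and stromal cells and released on damage, so messenger RNA levels do not give the amount of active cytokine.

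In the GRCm38 genome with GENCODE vM21 genes, 4 receptor genes lay on the plus strand of 1 stretch of chromosome 1. They were Il1r2 (ENSMUSG00000026073, chr1:40074079-40125231), Il1r1 (ENSMUSG00000026072, chr1:40225080-40317257), Il1rl1 (ENSMUSG00000026069, chr1:40429570-40465415) and Il18r1 (ENSMUSG00000026070, chr1:40465552-40500854). Chromosome 2 held Il1a (ENSMUSG00000027399, chr2:129299610-129309972, minus strand), Il1b (ENSMUSG00000027398, chr2:129364570-129371139, minus strand) and Il1rn (ENSMUSG00000026981, chr2:24336853-24351494, plus strand). The others, all on the plus strand, were Il18 (ENSMUSG00000039217, chr9:50554827-50581840), Il1rap (ENSMUSG00000022514, chr16:26581704-26730117) and Il33 (ENSMUSG00000024810, chr19:29925114-29960718). Each count covers all transcripts of a gene. Il33 had 5 annotated transcripts and 2 RefSeq start sites, which the table cannot separate.

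The bases just before the start sites of Il1a, Il1b and Il33 are shown because these ligands had the 3 largest log2 fold changes of the members by imiquimod. RefSeq (GRCm38.p6) gave windows for all 10 genes, with 17 start sites. Each line holds 100 bases that end at the base before the start site, read 5′ to 3′ on the gene's strand, with matches to TATAAA (gene strand) or TGANTCA (AP-1, both strands) in capitals.
Il1a, chr2:129309973-129310072: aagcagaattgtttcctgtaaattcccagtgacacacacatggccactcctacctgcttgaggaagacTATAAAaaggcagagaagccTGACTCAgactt
Il1b, chr2:129371140-129371239: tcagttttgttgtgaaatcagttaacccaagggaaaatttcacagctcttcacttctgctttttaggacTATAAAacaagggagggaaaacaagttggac
Il33, upstream start, chr19:29925013-29925112: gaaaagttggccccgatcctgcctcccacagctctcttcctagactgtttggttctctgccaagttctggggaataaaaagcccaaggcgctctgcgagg
Il33, downstream start, chr19:29945690-29945789: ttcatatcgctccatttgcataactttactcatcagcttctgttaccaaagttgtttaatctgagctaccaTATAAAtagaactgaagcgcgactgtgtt
TATAAA stood in the windows of Il1a, Il1b and the downstream start of Il33, and in 3.8% of 32851 mouse start sites over the same length. TGANTCA stood in the Il1a window and in 2.73% of all start sites. Over 250 bases before the start, the NF-κB consensus (both strands) matched in no Il1a, Il1b or Il33 window and in 3.9% of all. These matches are letters in a window, and nothing about binding follows from them.

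Total counts ran from 28756305 to 79836881 per library, and levels are given as CPM, counts per 1000000 counts of a library scaled by the TMM method. The sparsest member was Il1a, with 7 to 1022 counts, and each other member had at least 87 counts in every library. Fibroblast markers summed to between 11003 and 26397 CPM, while the 12 basal and suprabasal keratinocyte markers summed to 4407 to 7329 CPM in VAS+H2O, 2498 to 3698 CPM in IMQ+H2O and 4205 to 15748 CPM in IMQ+XYF, so keratinocyte transcripts were present in every dermis library. The 12 neutrophil markers summed to 9.75 to 36.3 CPM, 226 to 706 CPM and 187 to 506 CPM in the same order of groups, and Ly6g, a defining neutrophil gene, was at 0 in VAS+H2O. In each group, 1 library was the lowest for 8 of the 10 members. These were VAS+H2O replicate 1, IMQ+H2O replicate 1 and IMQ+XYF replicate 2, and the share over all genes was not computed. Each of them was also the lowest of its group for several marker sums. These were the neutrophil, stress keratinocyte, endothelial, fibroblast, mast cell, and dendritic and Langerhans cell sums.

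**Figure D1:**
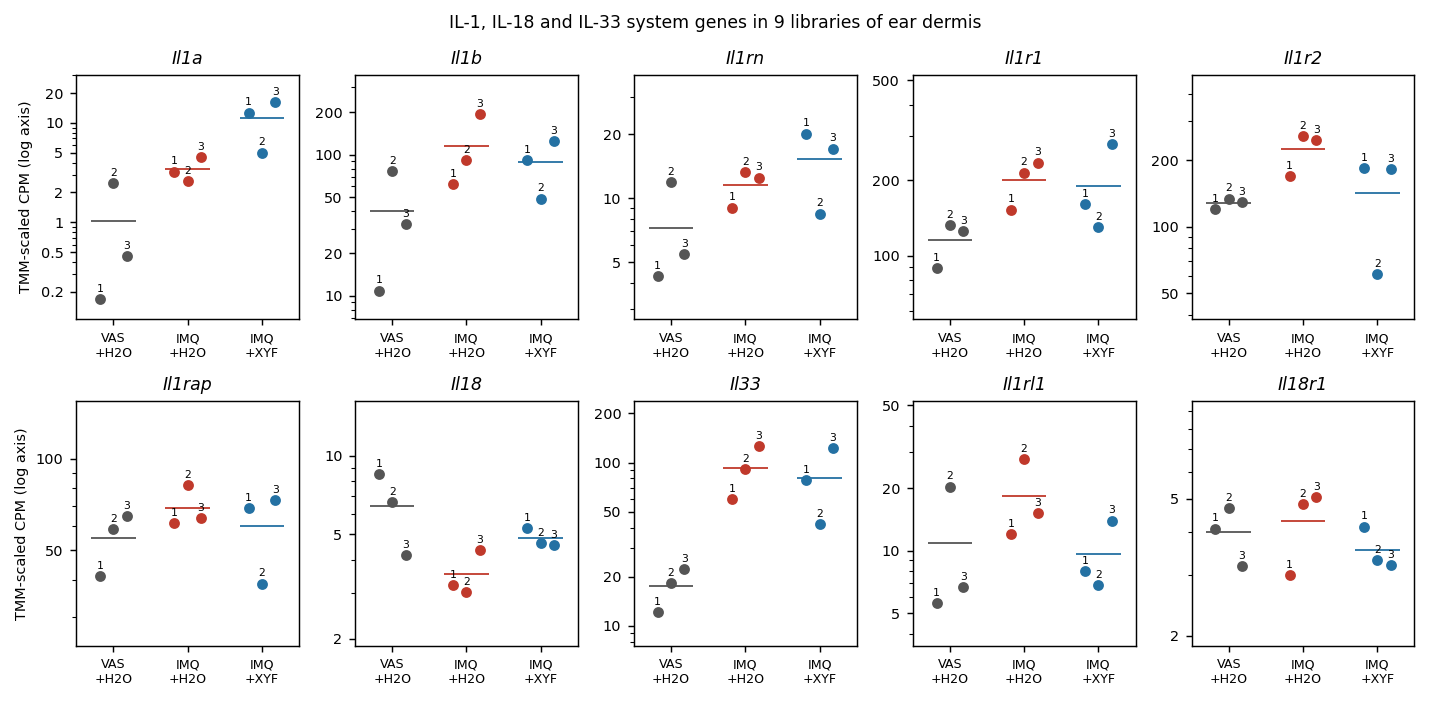
TMM-scaled CPM of the 10 genes on log axes, by group, with each point a library labelled by its replicate number and each line the group mean. Il33 lies higher in all 6 imiquimod-treated libraries than in the VAS+H2O libraries, Il1a forms 3 steps that do not overlap, and most other genes overlap between groups.

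Setting IMQ+H2O beside VAS+H2O asks how the system stood in inflamed dermis. Il33 rose 5.25-fold and was the 1 member of 10 called, where a gene was called at an edgeR adjusted p of 0.05 or lower and a log2 fold change of at least 1 in size. Of all 22430 genes tested, 0.994% were called. At an unadjusted edgeR p under 0.05 stood 3 members (Il33, Il1r1 and Il18), against 20.9% of all genes. The groups did not overlap for 4 members (Il1a, Il1r1, Il1r2 and Il33), against 31.5% of all genes. The log2 fold change was above 0 for 9 members, with a median of 0.77 against -0.02 over all genes.

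Setting IMQ+XYF beside IMQ+H2O asks what XYF changed in the inflamed dermis. edgeR called none of the 10 members, none stood at an unadjusted p under 0.05, and DESeq2 called none. The background was 2 called genes, or 0.00892% of those tested, with 11.7% at an unadjusted p under 0.05. Il1a and Il18 did not overlap between the groups, both higher with XYF, against 18.0% of all genes without overlap. The median log2 fold change of the members was -0.19, with 3 above 0 and 7 below 0, against a median of 0.01 over all genes.

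IMQ+XYF against VAS+H2O compares treated inflamed dermis with the control and shares its libraries with the comparisons above. Il33 was again the 1 member called, at 4.61-fold, where 1.2% of all genes were called. That call held in 5 of 15 alternative fits. At an unadjusted edgeR p under 0.05 stood 4 members (Il33, Il1a, Il1rn and Il1r1), against 18.3% of genes, and 2 members (Il1a and Il33) did not overlap, against 22.1%. The median log2 fold change over the members was 0.44 against -0.02 over all genes.

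**Figure D2:**
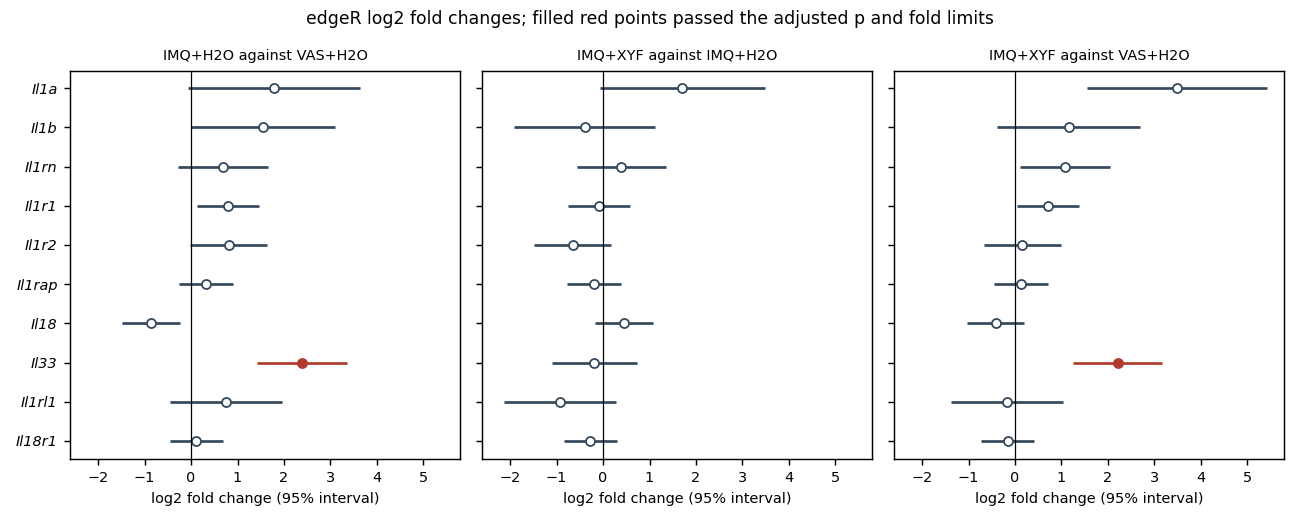
edgeR log2 fold changes (x axis) of the 10 genes with their 95% intervals in the 3 comparisons, filled red where called. Only Il33 is called, in both comparisons with VAS+H2O, and its interval against IMQ+H2O spans 0.

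Il33 encodes the alarmin IL-33. Its levels were 12.1, 18.2 and 22.2 CPM in VAS+H2O replicates 1 to 3. They were 59.6, 91.0 and 125.5 CPM in IMQ+H2O. They were 78.2, 42.0 and 122.5 CPM in IMQ+XYF. The lowest imiquimod-treated library, IMQ+XYF replicate 2, therefore held more Il33 than any control library, and the groups with and without XYF overlapped. By edgeR the log2 fold change was 2.39 ± 0.43 (SE, adjusted p = 0.0407) for IMQ+H2O and 2.21 ± 0.42 (adjusted p = 0.0431) for IMQ+XYF, each against VAS+H2O. Between IMQ+XYF and IMQ+H2O it was -0.19 (95% interval -1.10 to 0.73, adjusted p = 0.875), an interval that holds differences in either direction. In bulk RNA, more cells that express a gene and more of its RNA per cell cannot be told apart, which holds for every difference here. Leaving out any 1 of the 6 compared libraries gave adjusted p values from 0.0529 to 0.136 for IMQ+H2O with log2 fold changes from 2.12 to 2.63, none of them called. For IMQ+XYF the call held without IMQ+XYF replicate 2 (adjusted p = 0.0101) and was lost without any other library, with adjusted p from 0.0575 to 0.142. Fitted on the 6 compared libraries alone it was lost too (adjusted p = 0.0913).

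Il1a encodes IL-1α, an alarmin of keratinocytes and other barrier cells. It stood at 0.170, 2.47 and 0.456 CPM in VAS+H2O replicates 1 to 3, from 7, 89 and 34 counts. IMQ+H2O held 3.24, 2.60 and 4.53 CPM. IMQ+XYF held 12.7, 5.02 and 16.1 CPM. Each group lay above the one before it without overlap, and the control libraries themselves spread over 14.6-fold. The log2 fold change by edgeR was 1.78 ± 0.82 (SE, adjusted p = 0.253) from VAS+H2O to IMQ+H2O and 1.71 ± 0.78 (adjusted p = 0.436) from IMQ+H2O to IMQ+XYF, neither of them called. IMQ+XYF against VAS+H2O gave 3.49 ± 0.85 (adjusted p = 0.0744), which DESeq2 called (adjusted p = 0.000193) and edgeR called without IMQ+XYF replicate 2 (adjusted p = 0.0392, log2 fold change 3.90). Without VAS+H2O replicate 2, the highest control, the log2 fold changes against VAS+H2O were 3.39 (edgeR adjusted p = 0.0917) for IMQ+H2O and 5.10 (adjusted p = 0.0512) for IMQ+XYF, and neither was called. The 7 stress keratinocyte markers summed to 231 to 381 CPM in VAS+H2O, 511 to 827 CPM in IMQ+H2O and 619 to 3178 CPM in IMQ+XYF, with overlap between the last 2. edgeR called 0 of 7 by imiquimod, 0 by XYF and 5 higher in IMQ+XYF against VAS+H2O, with 6, 6 and 7 at an unadjusted p under 0.05 and 4, 3 and 7 called by DESeq2. The summed basal and suprabasal keratinocyte markers were lower in every IMQ+H2O library than in every VAS+H2O library. By imiquimod edgeR called 0 of these 12, with 3 at an unadjusted p under 0.05 and 1 called by DESeq2. In every IMQ+XYF library the same sum was higher than in every IMQ+H2O library. By XYF the numbers were 0, 7 and 3 in the same order. IMQ+XYF overlapped VAS+H2O, with 0, 4 and 2. The part of these cells in the Il1a values was not tested. An annotated gene on the opposite strand, Gm14023, overlaps Il1a and had 14 to 110 counts, and whether the counting used the strand is not given in the sources used here.

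Il1b encodes IL-1β, made largely by myeloid cells. Its levels were 10.9, 76.4 and 32.1 CPM in VAS+H2O, replicates in order. IMQ+H2O gave 62.1, 92.0 and 195.1 CPM, and IMQ+XYF gave 91.5, 49.0 and 125.3 CPM. All 3 groups overlapped, and the control replicate 2 exceeded the lowest library of either other group. Neither the 2.93-fold difference by imiquimod (log2 1.55 ± 0.69 SE, edgeR adjusted p = 0.240) nor that by XYF (-0.40 ± 0.67, adjusted p = 0.837) was called. The imiquimod value ran from 0.98 without IMQ+H2O replicate 3 to 2.43 without VAS+H2O replicate 2 on the log2 scale, with no call in either fit. The Il1b libraries kept the order of the neutrophil marker sums within every group. In replicate order, the 12 monocyte and macrophage markers summed to 690, 1073 and 678 CPM in VAS+H2O. They summed to 957, 1392 and 1207 CPM in IMQ+H2O and to 947, 862 and 957 CPM in IMQ+XYF. Their order matched that of Il1b in IMQ+XYF only. The part of either cell type was not tested.

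Il1rn encodes the antagonist IL-1Ra. VAS+H2O held 4.29, 11.9 and 5.45 CPM, IMQ+H2O 9.02, 13.3 and 12.5 CPM, and IMQ+XYF 20.2, 8.46 and 17.1 CPM. The XYF libraries included both the highest value and 1 below every IMQ+H2O library. The log2 fold change was 0.69 ± 0.43 (SE) for imiquimod, 0.40 ± 0.42 for XYF and 1.08 ± 0.43 for IMQ+XYF against VAS+H2O, with edgeR adjusted p of 0.385, 0.728 and 0.222.

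Il1r2, the decoy, was even in the control at 120.3, 134.3 and 129.4 CPM. IMQ+H2O held 169.9, 257.1 and 247.0 CPM, above every control library. IMQ+XYF held 184.4, 61.1 and 183.2 CPM, a range that reached from below the control into IMQ+H2O. The imiquimod difference was 0.81 ± 0.36 (SE, edgeR adjusted p = 0.245) and that of XYF was -0.65 (95% interval -1.48 to 0.17, adjusted p = 0.501) in log2 units, and neither was called.

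Il1r1 encodes the signalling receptor for IL-1. It stood at 89.1, 132.7 and 124.8 CPM in VAS+H2O, at 152.7, 214.4 and 234.7 CPM in IMQ+H2O, and at 160.1, 130.2 and 277.4 CPM in IMQ+XYF. Every IMQ+H2O library lay above every control library, whereas XYF replicate 2 fell inside the control range. The log2 difference by imiquimod was 0.80 ± 0.29 (SE, edgeR adjusted p = 0.175) and by XYF was -0.08 (95% interval -0.75 to 0.58, adjusted p = 0.927). The endothelial markers, from cells that carry this receptor, summed to 808 to 1165 CPM in VAS+H2O, 1705 to 1716 CPM in IMQ+H2O and 715 to 1629 CPM in IMQ+XYF, with 0 of 10 called by edgeR in any comparison. At an unadjusted p under 0.05 stood 6, 5 and 1 of them by imiquimod, by XYF and for IMQ+XYF against VAS+H2O, and DESeq2 called 1, 0 and 1. The 10 fibroblast markers summed to 15314 to 26397 CPM in VAS+H2O, 11003 to 18034 CPM in IMQ+H2O and 11030 to 18521 CPM in IMQ+XYF. By imiquimod 7 of them had a log2 fold change below 0 and 3 above 0. At an unadjusted edgeR p under 0.05 stood 3, 0 and 2 in the same order of comparisons, and edgeR and DESeq2 called 0 in each. The part of either cell type in the receptor values was not tested.

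Il1rap encodes the accessory chain that the IL-1 and IL-33 receptors share. Its levels were 41.1, 58.5 and 64.7 CPM in VAS+H2O, 61.2, 81.6 and 63.6 CPM in IMQ+H2O, and 68.9, 38.7 and 72.9 CPM in IMQ+XYF. All groups overlapped, with log2 differences of 0.33 ± 0.26 (SE) for imiquimod and -0.19 ± 0.26 for XYF (edgeR adjusted p = 0.494 and 0.785).

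Il1rl1 encodes ST2, the IL-33 receptor, which mast cells and type 2 lymphocytes carry. VAS+H2O held 5.60, 20.3 and 6.70 CPM, IMQ+H2O 12.0, 27.7 and 15.1 CPM, and IMQ+XYF 8.01, 6.85 and 14.0 CPM. Replicate 2 was the highest of both water groups, as it was for the 10 mast cell markers, which summed to 553 CPM in VAS+H2O replicate 2 and 733 CPM in IMQ+H2O replicate 2 against 280 to 457 CPM in the other 4 libraries of those groups. In IMQ+XYF the same markers summed to 332, 237 and 461 CPM, replicates in order. By imiquimod, by XYF and for IMQ+XYF against VAS+H2O, 2, 10 and 8 of them had log2 fold changes below 0. Of the 10, 1, 5 and 4 stood at an unadjusted edgeR p under 0.05, beside 20.9%, 11.7% and 18.3% of all genes. In each comparison edgeR called 0 and DESeq2 called 1. The mast cell part was not tested. The receptor was not called by imiquimod (log2 0.75 ± 0.53 SE, edgeR adjusted p = 0.448) or by XYF (-0.93 ± 0.53, adjusted p = 0.509). Its imiquimod value ran from 0.32 without IMQ+H2O replicate 2 to 1.57 without VAS+H2O replicate 2, with no call in either fit.

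Il18, the ligand of the third axis, was the 1 member with a log2 fold change below 0 by imiquimod. It stood at 8.51, 6.64 and 4.17 CPM in VAS+H2O, at 3.20, 3.01 and 4.37 CPM in IMQ+H2O, and at 5.30, 4.62 and 4.56 CPM in IMQ+XYF. A single IMQ+H2O library, replicate 3, lay above the lowest control library, and every XYF library lay above every IMQ+H2O library. Neither the imiquimod difference (-0.86 ± 0.27 SE, edgeR adjusted p = 0.134) nor the XYF difference (0.45 ± 0.27, adjusted p = 0.527) was called. Bco2, which overlaps Il18 on the opposite strand, had 22 to 108 counts, while Il18 had 93 to 426. As with the basal and suprabasal keratinocyte sum, the summed 12 cartilage markers were lower in every IMQ+H2O library than in every other library. They summed to 1390 to 2406 CPM in VAS+H2O, 408 to 641 CPM in IMQ+H2O and 784 to 2325 CPM in IMQ+XYF. The 8 genes listed for dissociation and RNA stress did the same, at 9138 to 12590, 6042 to 7243 and 8283 to 10805 CPM. Whether either list bears on the Il18 values was not tested.

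Il18r1 encodes the ligand-binding chain of the IL-18 receptor. VAS+H2O held 4.10, 4.70 and 3.19 CPM, IMQ+H2O 3.0, 4.83 and 5.07 CPM, and IMQ+XYF 4.16, 3.32 and 3.21 CPM. These groups overlapped in each comparison, with log2 differences of 0.11 ± 0.25 (SE) by imiquimod and -0.27 ± 0.25 by XYF (edgeR adjusted p = 0.829 and 0.679). Its partner chain Il18rap stood at 1.95 ± 0.45 CPM (SD, n = 3) in VAS+H2O, 5.12 ± 2.21 CPM in IMQ+H2O and 3.59 ± 2.24 CPM in IMQ+XYF and was not called by edgeR. Il18bp, the soluble inhibitor of IL-18, stood at 8.12 ± 2.75, 10.2 ± 0.20 and 10.7 ± 0.41 CPM in the same order (SD, n = 3), again with no call. Its control libraries held 9.51, 4.95 and 9.90 CPM, and every imiquimod-treated library lay above all of them.

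Between genes, levels were compared as CPM per kb of exon (the union of a gene's annotated exons). Il1r2 was the highest member in every group, at 67.1 ± 3.72 CPM per kb (SD, n = 3) in VAS+H2O, 118 ± 25.0 in IMQ+H2O and 74.9 ± 37.1 in IMQ+XYF. It was separate from the next gene, Il1b, in VAS+H2O and overlapped it in the other groups. The signalling receptor Il1r1 stood at 18.2 ± 3.65, 31.5 ± 6.72 and 29.7 ± 12.2 CPM per kb in the same order of groups. Il33 moved from rank 5 in VAS+H2O (6.07 ± 1.76 CPM per kb) to rank 3 in IMQ+H2O (31.9 ± 11.4), where it overlapped both neighbours, Il1b and Il1r1. Il1a moved from rank 10 (0.523 ± 0.636 CPM per kb) to rank 9 in IMQ+H2O (1.75 ± 0.498) and rank 5 in IMQ+XYF (5.72 ± 2.88), where it overlapped Il1rap below it and was separate from Il33 above it. With the length of the longest transcript in place of the exon union, Il1rap in VAS+H2O went from 4.82 to 12.1 CPM per kb and passed Il18 and Il33. With that length Il1a stood at rank 7 in IMQ+XYF, below Il1rap (13.3 CPM per kb) and Il1rn (5.97).

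**Figure D3:**
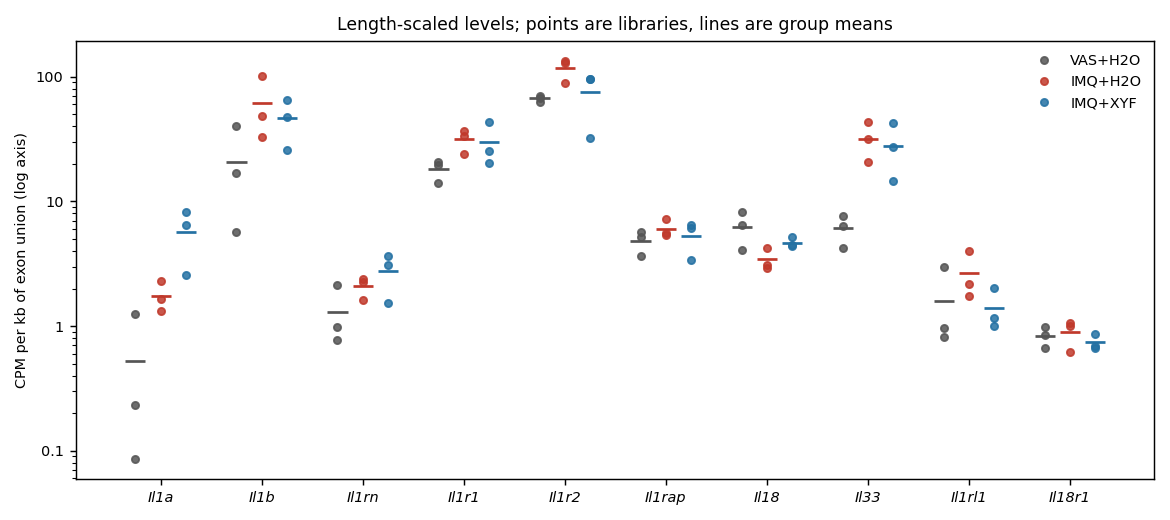
CPM per kb of exon union on a log axis for the 10 genes in VAS+H2O, IMQ+H2O and IMQ+XYF, with points for libraries and lines for group means. The decoy Il1r2 has the highest mean in each group and Il1a spans the widest range, from 0.0860 to 8.18 CPM per kb.

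Ratios of 2 genes within a library do not depend on library scaling and place ligands beside their antagonist, decoy or receptor. They are log2 ratios of counts with 1 added. With 3 libraries against 3, an exact two-sided permutation test cannot give a p below 0.1, so no ratio could pass 0.05, and over the 24 tests the smallest Benjamini-Hochberg adjusted p was 0.24. The groups did not overlap in 10 of the 24. These tests share genes and libraries, and no share over other pairs of genes was computed, so this count has no background beside it.

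The IL-1 ligands were set against each other and against the antagonist. Il1b to Il1a was 5.62 ± 0.61 (SD, n = 3) in VAS+H2O, 4.94 ± 0.61 in IMQ+H2O and 3.03 ± 0.23 in IMQ+XYF. All XYF libraries, at 2.85 to 3.28, lay below the 4.25 to 5.42 of IMQ+H2O (exact permutation p = 0.1, adjusted 0.24). Il1a to its antagonist Il1rn was -3.43 ± 1.11, -1.76 ± 0.51 and -0.50 ± 0.36 in the same order, without overlap between IMQ+XYF and either other group. Il1b to Il1rn was 2.19 ± 0.74, 3.18 ± 0.68 and 2.53 ± 0.34, higher in every IMQ+H2O library than in every control library, and XYF overlapped both.

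Antagonist and decoy were also set against each other. Il1rn to Il1r2 was nearly constant in IMQ+H2O, at -4.30 to -4.23, and lay at -3.42 to -2.85 in IMQ+XYF (exact permutation p = 0.1, adjusted 0.24). Il1r2 to Il1r1 was 0.17 ± 0.23, 0.16 ± 0.09 and -0.50 ± 0.65 (SD, n = 3) in VAS+H2O, IMQ+H2O and IMQ+XYF and overlapped between all groups. Il33 to Il1rl1 was 0.89 ± 0.96 in VAS+H2O, 2.36 ± 0.67 in IMQ+H2O and 3.01 ± 0.35 in IMQ+XYF, and did not overlap between the first and last of these. Il18 to Il18r1 was 0.38 to 1.05 in VAS+H2O, -0.68 to 0.10 in IMQ+H2O and 0.35 to 0.50 in IMQ+XYF, so the IMQ+H2O libraries stood below both other groups.

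**Figure D4:**
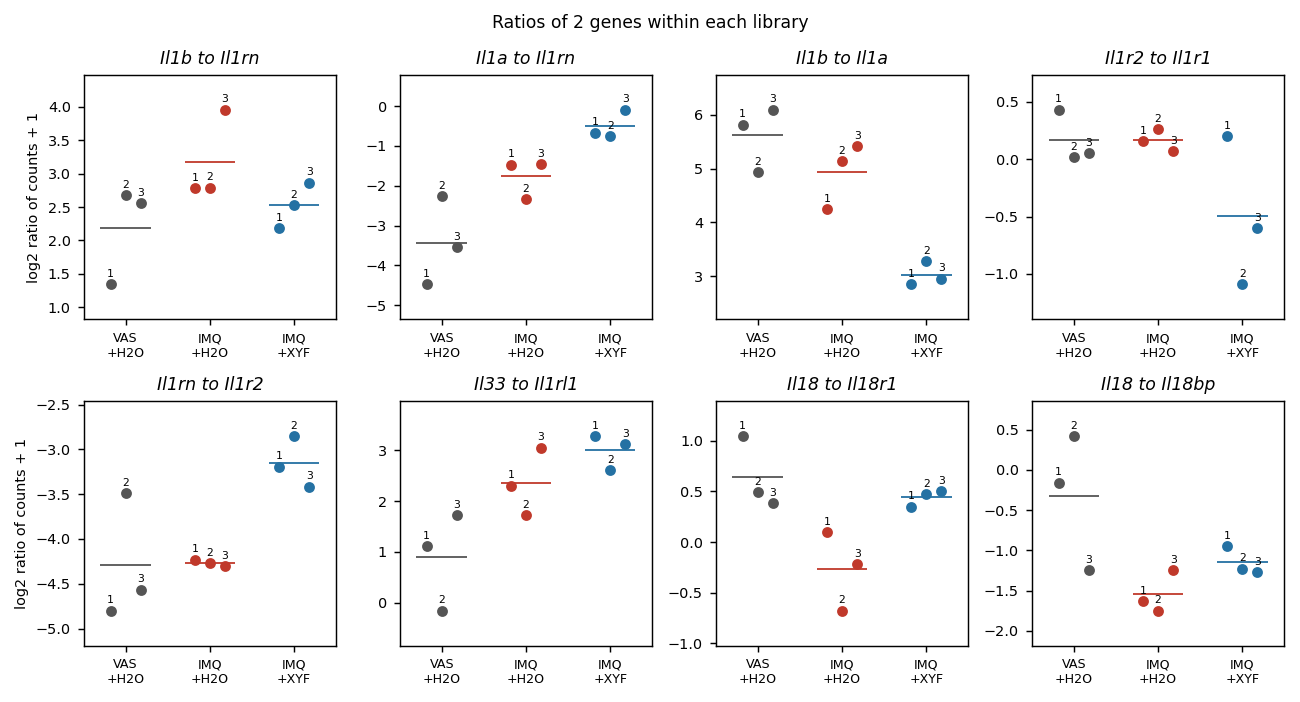
log2 ratios of counts (with 1 added) for 8 gene pairs, with each point a library labelled by replicate number and each line the group mean. Il1b to Il1a lies lowest in the 3 IMQ+XYF libraries, and Il18 to Il18r1 lies lowest in the 3 IMQ+H2O libraries.

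The other genes of the pathway were read from lists. Of 24 receptor signalling genes, 10 negative regulators, 15 tested genes of inflammasomes and cytokine release, 5 tested ligand-cutting proteases and 5 further tested family members, edgeR called 0 in any comparison. At an unadjusted edgeR p under 0.05 by imiquimod stood 6, 2, 1, 1 and 2 of them, where 20.9% of all genes did, and by XYF 3, 2, 2, 1 and 1, where 11.7% did. The lists share genes, so these tallies are not of separate genes. Irak3 and Tollip are both signalling genes and negative regulators, and Sigirr is both a negative regulator and a further family member. DESeq2 called 1 further family member (Il18rap, higher) and 1 protease (Ctsg, lower), both by imiquimod, of which Ctsg is named after its values were seen. The adaptor Myd88 stood at 62.5 ± 11.3, 74.3 ± 5.15 and 80.7 ± 10.3 CPM (SD, n = 3) in VAS+H2O, IMQ+H2O and IMQ+XYF. Irak3, a brake on that adaptor's complex, stood at 27.6 ± 3.22, 43.6 ± 6.32 and 39.2 ± 2.34 CPM, and its imiquimod difference of 0.66 ± 0.13 (SE, log2) missed both limits of a call (edgeR adjusted p = 0.0540). Nlrp3, an inflammasome sensor, held 2.47 ± 2.60, 6.18 ± 2.95 and 5.02 ± 1.11 CPM, and Casp1, which cuts the IL-1β and IL-18 precursors, held 9.59 ± 2.95, 9.74 ± 1.79 and 8.34 ± 2.89 CPM.

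Genes that IL-1 commonly induces in stromal cells held 3 of 18 called higher by imiquimod, 0 by XYF, and 4 higher in IMQ+XYF against VAS+H2O, beside 0.994%, 0.00892% and 1.2% of all genes called. Their median log2 fold changes were 1.03, -0.20 and 1.12, and 7, 3 and 9 of them stood at an unadjusted edgeR p under 0.05, beside 20.9%, 11.7% and 18.3% of all genes. Those called by edgeR were Lcn2, an iron-siderophore binding protein, Saa3, an acute-phase protein, and Cxcl5, a neutrophil chemokine. In the last comparison Ccl20, a chemokine for CCR6-bearing cells, joined them. DESeq2 called 6 higher by imiquimod and 5 higher in IMQ+XYF against VAS+H2O, with Ccl20 among them both times. Other cytokines, IL-17 among them, also induce these genes.

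Lcn2 was 20.5 to 32.2 CPM in VAS+H2O, 188 to 296 CPM in IMQ+H2O and 140 to 163 CPM in IMQ+XYF. No group overlapped another, and the IMQ+H2O rise was 3.22 ± 0.23 (SE, log2, edgeR adjusted p = 0.00255). Against IMQ+H2O, Lcn2 in IMQ+XYF differed by -0.63 ± 0.21, which was not called (adjusted p = 0.368). Cxcl5 went from 0.238 ± 0.142 CPM (SD, n = 3) to 91.8 ± 65.0 and 88.2 ± 75.3 CPM, and Saa3 from 0.670 to 1.75 CPM to 64.5 to 752 CPM and 75.8 to 179.6 CPM. Ccl20 was 1.21 to 3.72 CPM, 11.5 to 13.2 CPM and 25.7 to 140.9 CPM, so its groups did not overlap either. Its XYF difference of 2.41 ± 0.66 (SE, log2) was not called (edgeR adjusted p = 0.364), while DESeq2 called it, as 1 of the 18 genes and the 1 it called in this list by XYF. Il6 overlapped between all groups, at 66.5 ± 46.6, 115 ± 65.3 and 82.0 ± 38.1 CPM (SD, n = 3).

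Among genes commonly linked to IL-33 and type 2 responses, edgeR called 2 of 13 tested higher and 1 lower in each comparison with VAS+H2O. By XYF it called 0. The shares of all genes called were 0.994% by imiquimod, 0.00892% by XYF and 1.2% for IMQ+XYF against VAS+H2O. In that order, 6, 0 and 6 stood at an unadjusted edgeR p under 0.05, beside 20.9%, 11.7% and 18.3% of all genes. DESeq2 called 4, 0 and 5, of which 1 was lower in each comparison with VAS+H2O. The chemokine genes Ccl17 and Ccl22, whose products draw CCR4-bearing cells, rose. Ccl17 was 1.76 ± 0.263 CPM (SD, n = 3) in VAS+H2O, 16.2 ± 6.59 CPM in IMQ+H2O and 11.2 ± 5.53 CPM in IMQ+XYF. Ccl22 was 5.46 to 5.50 CPM, 22.0 to 76.3 CPM and 26.3 to 46.7 CPM. Retnla, a marker of alternatively activated macrophages, fell from 7.13 ± 1.44 CPM (SD, n = 3) to 1.52 ± 0.416 and 1.35 ± 0.351 CPM, so the list moved in both directions. In the list linked to IL-18 and IL-12, edgeR called 0 of 8 tested genes in any comparison. At an unadjusted edgeR p under 0.05 stood 4, 0 and 3 of them, beside 20.9%, 11.7% and 18.3% of all genes. DESeq2 called 2 higher and 1 lower by imiquimod, 0 by XYF, and 1 higher and 1 lower in IMQ+XYF against VAS+H2O. Ifng had 5 counts in VAS+H2O replicate 3, 3 counts in IMQ+H2O replicate 2 and 0 in every other library.

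**Figure D5:**
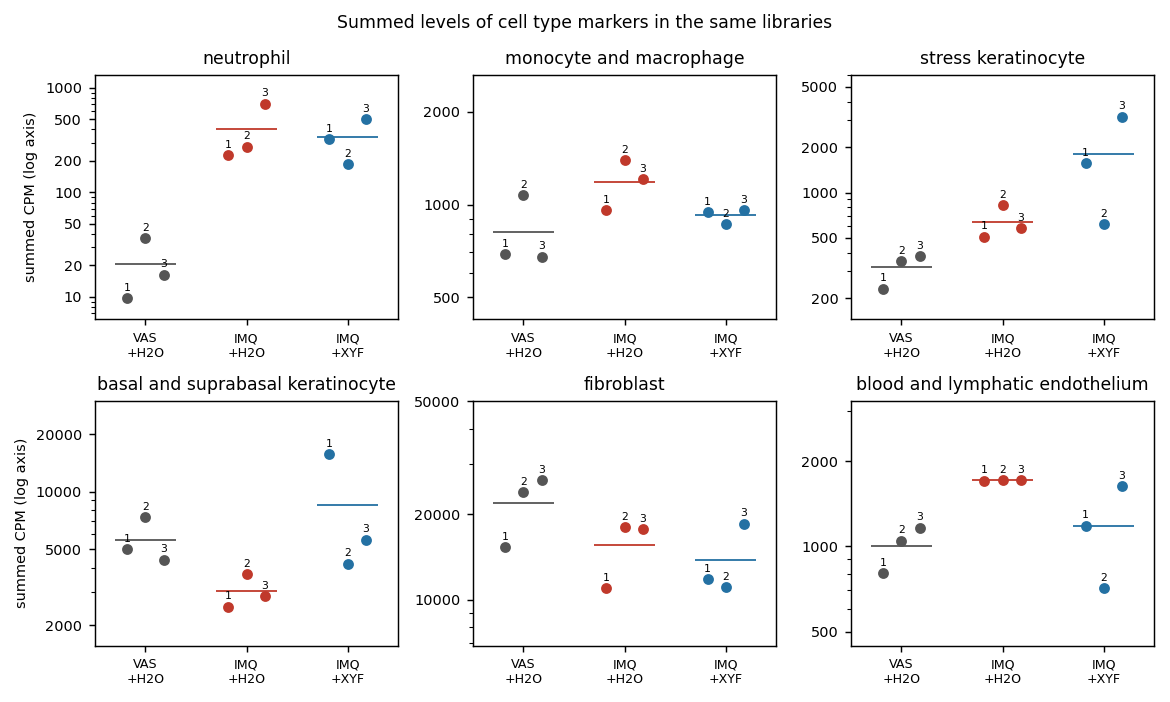
Summed CPM (log axes) of 6 lists of cell type markers, with each point a library labelled by replicate number and each line the group mean. The neutrophil sum lies between 187 and 706 CPM in the 6 imiquimod-treated libraries and reaches at most 36.3 CPM in the control.

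Profiles most like those of 5 members were found among 14486 genes by Pearson's r of log2 CPM over the 9 libraries. This r is a description and mixes differences between groups with those between libraries. Nearest to Il33 were Susd1 (r = 0.996), Rtn4rl2 (0.988) and Cfl1 (0.987), and nearest to Il1b were Snap23 (0.983), the neutrophil chemokine gene Cxcl2 (0.979) and the neutrophil protease gene Mmp9 (0.973). Il1rn was followed by Clic1 (0.984), Exoc5 (0.977) and Atp5b (0.969), and Il1r1 by Tmem173 (0.980), Ndufs5 (0.971) and Cpxm1 (0.967). The values for Il18 were lower, with Camk1d (0.955), Tm2d1 (0.920) and Esr1 (0.917).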

How the data were processed

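RNA of ear dermis was sequenced in 9 libraries, 3 per group, grouped by the sample labels. The authors deposited whole-number read counts per Ensembl gene, with no normalization. Per the labels and the study's methods, reads were aligned with STAR 2.5 to GRCm38. The labels further name Cuffnorm and DESeq 1.22.1, the methods StringTie and DESeq2. The counting tool, its use of strand and its treatment of reads with several alignments are not given in the sources used here. The methods mention ear sheets from 2 mice, without saying whether libraries were pools.

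Counts were tested with edgeR 4.0.16 (R 4.3.3): filterByExpr left 22430 genes, scaling was by TMM, and all 9 libraries entered 1 quasi-likelihood fit (common biological coefficient of variation 0.296). A gene was called at a Benjamini-Hochberg adjusted p of 0.05 or lower over all tested genes and a log2 fold change in size of 1 or higher, as in the study. DESeq2 1.42.0 was an alternative. The SE of a log2 fold change was taken as its size over the square root of F. The code was tested on simulated data. A floor of 3 counts was a fixed value and was not part of the filter, and depth was 28756305 to 79836881 counts. Of the identifiers, 52403 of 52550 were in GENCODE vM21.

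Members, pathway lists and markers were chosen with earlier results of these data known. Named were all members, every called gene of the pathway lists, Il18bp, Il18rap, Myd88, Irak3, Nlrp3, Casp1 and Il6, the 3 most alike genes for 5 members, and markers needed for ranges.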

Additional observations from a re-analysis of the deposited data

How the results depend on the processing

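Alternatives were DESeq2, DESeq2 size factors, no TMM, no low-count filter, only the 6 libraries compared, each library left out, and a replicate block. Genes called numbered 223 by imiquimod, 2 by XYF and 270 for IMQ+XYF against VAS+H2O. DESeq2 gave 940, 219 and 705, and the 6 compared libraries alone gave 496, 1 and 33. Without TMM the XYF count was 1. Leaving out single libraries gave 25 to 455, 0 to 4 and 12 to 592, and 455 and 592 came without IMQ+XYF replicate 2. Members called ranged from 0 to 1, stayed at 0, and ranged from 0 to 2 over these omissions. For IMQ+XYF against VAS+H2O, members called were 2 by DESeq2 and 0 from 6 libraries. Il33 was called by imiquimod in 9 of 15 alternatives and for IMQ+XYF against VAS+H2O in 5 of 15. The causes were not tested.

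With the replicate block, 86, 0 and 54 genes were called, and 0 members for IMQ+XYF against VAS+H2O. In deviations from group means, same-numbered libraries correlated with r from -0.18 to 0.12 and differently numbered ones from -0.16 to 0.28. These values showed no pairing by number. They cannot exclude it, because deviations from a mean of 3 libraries depend on each other. The block turned the Il1rl1 difference of IMQ+XYF from VAS+H2O from -0.17 to 0.080.

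Sign changed in 16 of 450 alternative fold changes of members and 8 of 168 ratios, all of uncalled values. Over omissions of 1 library, log2 fold changes by imiquimod ran from -0.030 to 0.31 for Il18r1. Those by XYF ran from -0.73 to 0.22 for Il1b, -0.46 to 0.15 for Il1r1, -0.35 to 0.070 for Il1rap and -0.61 to 0.15 for Il33. For IMQ+XYF against VAS+H2O they ran from -0.067 to 0.57 for Il1r2, -0.034 to 0.42 for Il1rap and -0.54 to 0.64 for Il1rl1. Differences in log2 ratio ran from -0.089 to 0.58 for Il1b to Il1rn and -0.33 to 0.0018 for Il18 to Il18r1 in IMQ+XYF against VAS+H2O, and by imiquimod from -0.079 to 0.13 for Il1r2 to Il1r1 and -0.24 to 0.41 for Il1rn to Il1r2.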
